A study of Mus musculus with 4 samples.

Results

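Keratins are the intermediate filament proteins of epithelial cells, and the transcripts of 10 keratin genes were examined in mouse lung tumours with and without floxed Mll4. The genes were taken by symbol from a set list: the simple-epithelial keratins Krt7, Krt8, Krt18, Krt19 and Krt23, the basal and squamous keratins Krt5, Krt14, Krt15 and Krt17, and the gut-type keratin Krt20. All 10 were among the 24391 genes in the files, and all 10 passed the count filter that left 16001 genes for testing. Krt14 passed through its reads in one group alone.

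A keratin filament is built from pairs of a type I and a type II protein, so that neither type polymerises alone. Krt8 (type II) with Krt18 (type I) is the pair of simple, single-layered epithelium, including that of the alveolus and airway, with Krt7 and Krt19 added in ducts and conducting airways. Krt5 (type II) with Krt14 (type I) is the pair of basal cells, Krt15 and Krt17 are type I keratins of basal or stressed stratified epithelium, and Krt20 is a type I keratin of gut and bladder lining.

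The 2 K-Ras samples came from tumours of mice with the K-RasLSL-G12D allele, a mutant K-Ras silenced by a lox-flanked stop cassette, and the 2 K-Ras Mll4-/- samples from K-RasLSL-G12D;Mll4fl/fl mice, which carry floxed Mll4 alleles besides. All 4 samples thus share the K-Ras allele, and all 4 were depleted of CD45-bearing leukocytes before RNA extraction. How Cre was delivered, which cells it reached, the strain, age and sex of the mice, and whether a sample was 1 tumour, 1 mouse or a pool are not given in the sources used here. Nothing in the labels says that replicates came from separate animals, so p-values measure the spread between these samples, which may be technical. Mll4 is now named Kmt2d and encodes a histone H3 lysine methyltransferase. Kmt2d was at 395 and 526 CPM in the K-Ras samples and at 367 and 317 CPM in the K-Ras Mll4-/- samples, a difference that was not called (log2 fold change -0.43, SE 0.21, edgeR quasi-likelihood adjusted p = 0.302), and counts per gene do not resolve the loss of floxed exons, so the genotype is taken from the labels.

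The samples held 26683033 to 36677987 reads in genes. Taken as the least that shows a transcript, 3 reads were worth 0.0818 to 0.112 per 1000000 reads in genes before scaling. CPM here means reads per 1000000 in genes after the TMM scaling of edgeR. The 8 alveolar type 2 markers summed to between 21368 and 32916 CPM and thus dominated the cell type lists, with no K-Ras Mll4-/- sample outside the K-Ras range. The libraries were not alike in their sums of cell type markers. A list of 13 general epithelial genes, such as Epcam and Cdh1, summed to 927 CPM in K-Ras replicate 1 and to 1622, 1802 and 2409 CPM in K-Ras replicate 2 and K-Ras Mll4-/- replicates 1 and 2. K-Ras replicate 1 had the highest fibroblast sum, 2494 CPM against 853 to 1153 CPM in the other 3 samples. K-Ras replicate 2 had the highest ciliated and club sums, 946 and 4139 CPM against at most 272 and 1264 CPM elsewhere. In such bulk samples, more keratin-bearing cells and more keratin RNA per cell cannot be told apart.

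The simple-epithelial keratins were more abundant in both K-Ras Mll4-/- samples than in either K-Ras sample. The 10 keratins together took 0.0659% and 0.112% of the reads in genes in K-Ras replicates 1 and 2 (95% Wilson intervals 0.0649 to 0.0668% and 0.111 to 0.113%). They took 0.336% and 0.338% in K-Ras Mll4-/- replicates 1 and 2 (0.334 to 0.339% and 0.336 to 0.34%). These intervals cover counting error only. Nearly all of this was 4 genes, since Krt7, Krt8, Krt18 and Krt19 made up 95.6% to 98.2% of the reads per kilobase of these 10 in each sample.

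No keratin was called singly. At an adjusted p under 0.05 the edgeR quasi-likelihood test called 0 of the 10, against 0.0375% of all genes tested, and DESeq2 called 5 of the 10, against 10.0% of all genes. The edgeR likelihood ratio test also called 5, against 9.39%, and limma-voom called 0. At an unadjusted p under 0.05, 6 of the 10 were higher in K-Ras Mll4-/- samples and 0 lower, where 11.4% of all genes were higher and 10.4% lower. The same 6, Krt7, Krt8, Krt14, Krt18, Krt19 and Krt23, were those with both K-Ras Mll4-/- samples above both K-Ras samples, as were 29.9% of all genes. The median log2 fold change of the 10 was 1.65, against -0.01 over all genes tested. At least 1 on the log2 scale was reached by 7 of the 10 and by 5.03% of all genes, and -1 or lower by 0 of the 10 and by 8.55% of all genes. The sign was positive for 8 of the 10 and for 48.8% of all genes. Krt14 could pass the filter only by being high in one group. It is part of the median and of each of these counts of higher keratins, so the filter partly set them. The 5 calls of DESeq2 and the 5 of the other edgeR test include Krt14 too.

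**Figure D1:**
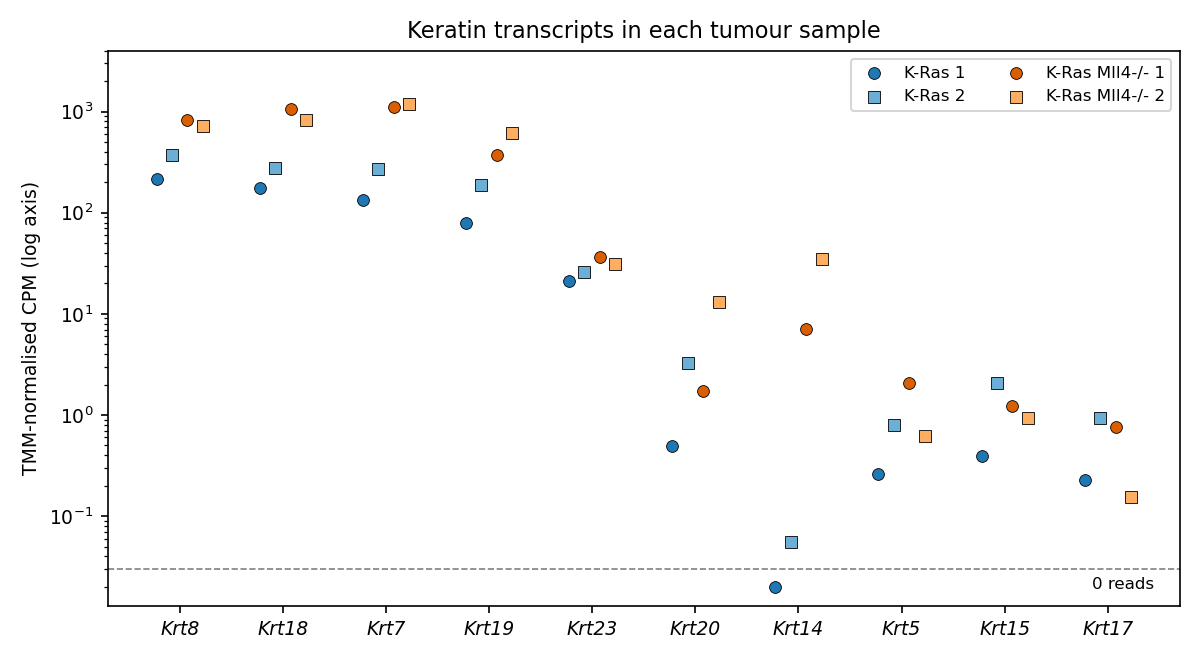
TMM-normalised CPM of the 10 keratins on a log axis, with 1 point for each of the 4 samples (circles, replicate 1, squares, replicate 2). K-Ras Mll4-/- points lie above both K-Ras points for Krt8, Krt18, Krt7, Krt19, Krt23 and Krt14 and overlap them for Krt20, Krt5, Krt15 and Krt17; the point below the dashed line had 0 reads.

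The promoters of 3 of these genes are shown because the transcripts were higher together and, in the mouse, lie in a single keratin gene cluster on chromosome 15, where Krt18 is the only type I gene, next to Krt8. Each sequence is from RefSeq (GRCm38.p6) and runs 5′ to 3′ from 250 bases before to 30 bases after the annotated start. RefSeq windows were matched for 7 of the 10 genes, and not for Krt15, Krt17 and Krt19. Capitals mark matches on either strand to 3 core promoter or AP-1 motifs: TATAAA, the GC box GGGCGG, and TGANTCA of AP-1.
Krt7, chr15:101412153-101412432, + strand: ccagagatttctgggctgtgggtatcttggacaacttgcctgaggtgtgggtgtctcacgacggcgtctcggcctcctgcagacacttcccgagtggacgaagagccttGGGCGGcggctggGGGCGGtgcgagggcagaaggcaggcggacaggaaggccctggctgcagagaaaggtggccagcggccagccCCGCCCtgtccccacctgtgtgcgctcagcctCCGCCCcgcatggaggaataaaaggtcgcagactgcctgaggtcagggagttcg
Krt8, chr15:102004313-102004592, - strand: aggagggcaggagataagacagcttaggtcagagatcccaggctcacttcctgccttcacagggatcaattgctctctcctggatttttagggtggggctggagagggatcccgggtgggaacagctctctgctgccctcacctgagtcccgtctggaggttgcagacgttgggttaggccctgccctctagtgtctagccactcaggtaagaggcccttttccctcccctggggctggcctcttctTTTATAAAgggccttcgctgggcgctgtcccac
Krt18, chr15:102027966-102028245, + strand: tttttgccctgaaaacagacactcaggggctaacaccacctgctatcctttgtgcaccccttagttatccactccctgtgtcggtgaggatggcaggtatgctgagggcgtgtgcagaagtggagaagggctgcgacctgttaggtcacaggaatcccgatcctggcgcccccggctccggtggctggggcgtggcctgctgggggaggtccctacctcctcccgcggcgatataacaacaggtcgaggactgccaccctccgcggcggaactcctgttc

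The 3 windows had no motif in common among those searched. Krt7 held 4 GC boxes, a motif present in 34.7% of the 32851 promoter windows of this length. Krt8 held 2 overlapping TATAAA matches, 1 on each strand, at its annotated start, where 13.1% of windows hold at least 1 anywhere. Krt18 held none of the 3 motifs. TGANTCA, present in 7.46% of all windows, was not among the letters of any of the 7 keratin windows.

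Krt18, the type I partner in the simple-epithelial pair, had the smallest p of the 10. It was at 177 and 277 CPM in K-Ras replicates 1 and 2 and at 1065 and 834 CPM in K-Ras Mll4-/- replicates 1 and 2. The lowest K-Ras Mll4-/- value was thus above the highest K-Ras value. The fitted difference was 4.19-fold (log2 2.07, SE 0.30, edgeR adjusted p = 0.136).

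Krt8, its type II partner, was at 214 and 371 CPM in the K-Ras samples and at 829 and 727 CPM in the K-Ras Mll4-/- samples, again without overlap. The difference, 2.66-fold, was smaller than that of Krt18 (log2 1.41, SE 0.32, edgeR adjusted p = 0.160). Of the 50-base stretches of the Krt8 transcript, 29.7% also occur in another annotated transcript, mostly in the pseudogene Krt8-ps. Reads that align to several places were not assigned to genes, so Krt8 may be undercounted in every sample.

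Krt7, the other abundant type II keratin, showed the widest gap of the abundant 4. Its values were 135 and 270 CPM in the K-Ras samples and 1105 and 1199 CPM in the K-Ras Mll4-/- samples. The difference was 5.69-fold (log2 2.51, SE 0.39, edgeR adjusted p = 0.144), and 1.01% of all genes tested had a larger log2 fold change. By reads Krt7 was behind Krt8 and Krt18 in both K-Ras samples and first in both K-Ras Mll4-/- samples.

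Krt19, a small type I keratin of ducts and airways, was the most variable of the 4 within groups. It was at 78.4 and 187 CPM in the K-Ras samples, 2.38-fold apart, and at 370 and 609 CPM in the K-Ras Mll4-/- samples, 1.65-fold apart. The groups did not overlap, and the difference was 3.70-fold (log2 1.89, SE 0.51, edgeR adjusted p = 0.178).

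Krt23, a type I keratin expressed at low level in simple epithelium, differed least of the 6. It was at 21.3 and 25.7 CPM in the K-Ras samples and at 36.5 and 31.0 CPM in the K-Ras Mll4-/- samples, a 1.44-fold difference (log2 0.52, SE 0.17, edgeR adjusted p = 0.203). Its sign turned to -0.21 when counts were scaled on the 13 general epithelial genes.

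That scaling bears on all the simple keratins, because most of the general epithelial genes were themselves higher in K-Ras Mll4-/- samples. Of the 13, 11 had a positive log2 fold change. The 2 negative ones were Cldn3 (-0.79, lower without overlap) and Prss8 (-0.24, with overlap). The median log2 fold change of the 13 was 0.87. At an unadjusted edgeR p under 0.05, 7 of 13 passed, all higher, where 11.4% of all genes were higher. Epcam was at 101 and 126 CPM in the K-Ras samples and at 182 and 233 CPM in the K-Ras Mll4-/- samples. Scaling on the 13 genes in place of TMM moved the median of all genes to -0.80. Against that scaling Krt7 was still higher by 1.85 on the log2 scale (edgeR adjusted p = 0.0173), Krt18 by 1.39 (adjusted p = 0.0930), Krt19 by 1.22 (adjusted p = 0.148) and Krt8 by 0.74 (adjusted p = 0.338), where 6.44% of all genes were called. Krt14 was the other keratin called under it. Krt7 had a smaller adjusted p here although its difference shrank from 2.51 to 1.85 and its SE rose from 0.39 to 0.54. The SEs of Krt8, Krt18 and Krt19 rose as well, to the nearly equal values of 0.53, 0.53 and 0.54. These p-values are therefore not comparable with those after TMM scaling, and no stronger evidence for Krt7 is drawn from them. Relative to the mean log2 CPM of the 13 genes, Krt7 stood at 1.50 and 1.69 in the K-Ras samples and at 3.56 and 3.32 in the K-Ras Mll4-/- samples. Krt8 on the same log2 scale stood at 2.17 and 2.15 against 3.14 and 2.60. For both genes the groups did not overlap on this scale. The part of epithelial content in the keratin differences was not tested.

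**Figure D2:**
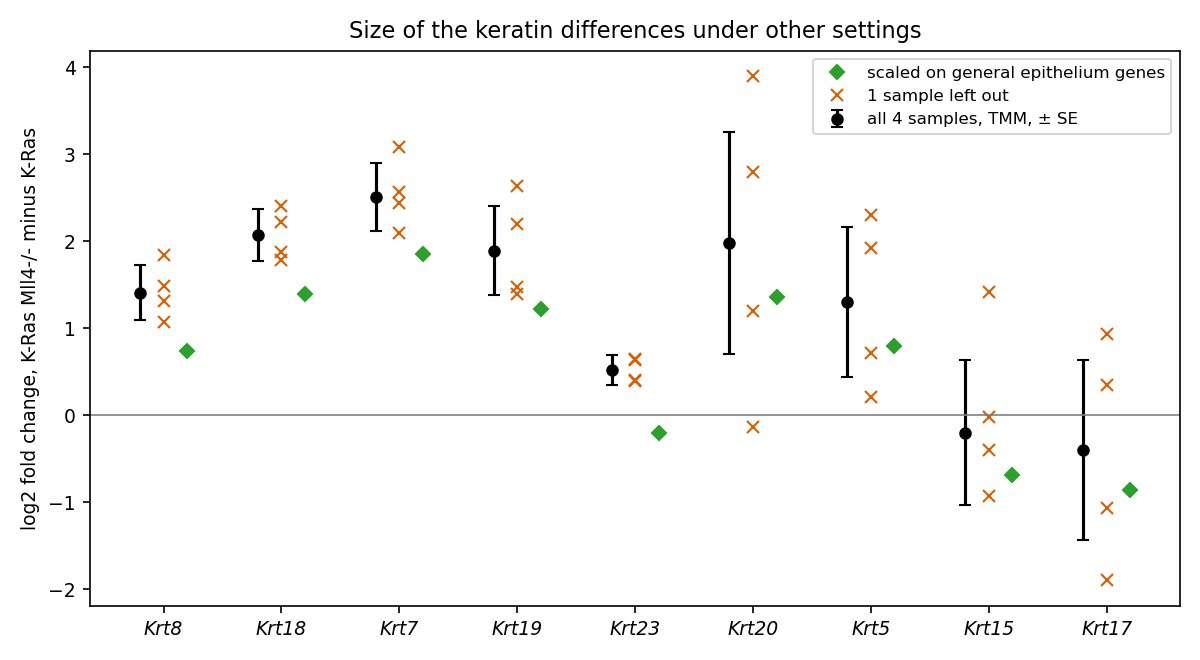
Log2 fold change (K-Ras Mll4-/- minus K-Ras) of 9 keratins, with the fit over all 4 samples as black circles with standard errors, fits without 1 sample as crosses, and the fit scaled on general epithelial genes as green diamonds. Krt14 (log2 9.27) is off this scale and not drawn. Krt7, Krt8, Krt18 and Krt19 stay above 0 throughout, while Krt15, Krt17, Krt20 and Krt23 each cross it.

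Leaving out single samples kept the abundant 4 above 0 in each fit. K-Ras replicate 1 was the sample with the lowest sum of general epithelial genes. Without it, the log2 fold changes were 2.09 for Krt7, 1.78 for Krt18, 1.39 for Krt19 and 1.07 for Krt8. Without K-Ras replicate 2, the sample with the most airway markers, they were 3.08, 2.41, 2.63 and 1.84. In the same order they were 2.57, 1.88, 2.20 and 1.31 without K-Ras Mll4-/- replicate 1. They were 2.44, 2.22, 1.47 and 1.49 without K-Ras Mll4-/- replicate 2.

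The balance among the simple keratins was read from ratios within each sample, and no ratio passed its test. Per kilobase of transcript (GENCODE M21 lengths), Krt8 ran at 0.891 and 0.983 times Krt18 in the K-Ras samples and at 0.571 and 0.640 times in the K-Ras Mll4-/- samples. The difference in this log2 ratio was -0.63, larger than the SD of either group (0.10 and 0.12, n = 2 each), but an exact two-sided permutation test of 2 samples against 2 cannot go below p = 0.33, the value it gave. Krt7 ran at 0.300 and 0.348 times Krt8 per kilobase in the K-Ras samples and at 0.638 and 0.789 times in the K-Ras Mll4-/- samples. That log2 ratio differed by 1.13, with SDs of 0.15 and 0.22 (n = 2 each, exact permutation p = 0.33). The K-Ras Mll4-/- ratios of Krt7 to Krt8 were both above the K-Ras ratios. The ratio of Krt19 to Krt18 overlapped between the groups, at 0.405 and 0.614 in the K-Ras and 0.317 and 0.666 in the K-Ras Mll4-/- samples. Krt7 ran at 0.661 and 0.557 times Krt19 in the K-Ras and at 1.15 and 0.757 times in the K-Ras Mll4-/- samples, without overlap. Over the 6 ratios compared per kilobase, the lowest Benjamini-Hochberg adjusted p of the exact permutation tests was 0.400. A ratio of Krt5 to Krt14 could not be formed in K-Ras replicate 1, where Krt14 had 0 reads.

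Which keratin led depended on the length used. The annotated Krt7 transcript has 4094 bases, of which 1371 are coding, while that of Krt18 has 1437 bases, of which 1269 are coding. Per kilobase of whole transcript Krt18 led in all 4 samples, at 123, 193, 741 and 580 CPM per kilobase in K-Ras replicates 1 and 2 and K-Ras Mll4-/- replicates 1 and 2. Krt8 came next in the K-Ras samples, at 110 and 189 CPM per kilobase. Per coding kilobase Krt8 led in both K-Ras samples, at 146 and 252 CPM, and Krt7 led in K-Ras Mll4-/- replicate 2, at 875 CPM. Krt7 and Krt18, at 806 and 840 CPM per coding kilobase in K-Ras Mll4-/- replicate 1, changed places between the replicates and are not ordered beyond their spread. Summed over the members, type II over type I differed by -0.19 in log2 ratio per whole kilobase but by 0.03 per coding kilobase, so no difference in the balance of the types is drawn from it.

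**Figure D3:**
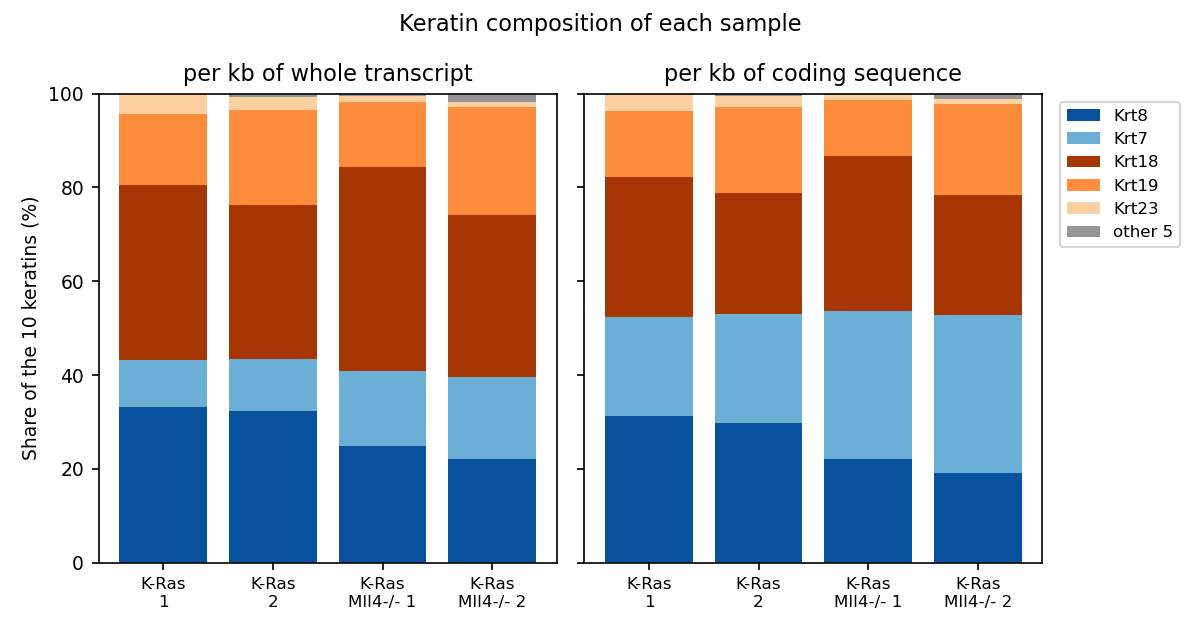
Share of each keratin in the summed reads per kilobase of the 10 genes, 1 bar for each sample, with whole-transcript lengths on the left and coding lengths on the right. On either length the Krt7 segment (light blue) is larger and the Krt8 segment (dark blue) smaller in the K-Ras Mll4-/- bars; Krt7 runs from 9.98% and 11.2% to 15.9% and 17.4% on the left.

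Krt14, the type I keratin of basal cells, was at or under the floor in the K-Ras samples. It had 0 and 2 reads in K-Ras replicates 1 and 2, both short of 3 reads, and 185 and 1119 reads in K-Ras Mll4-/- replicates 1 and 2, or 7.05 and 34.7 CPM. The 1304 reads of one group against 2 of the other give a ratio of 744 at equal depth, with an exact 95% counting interval from 205 to 6148 that leaves out the spread between samples. Its fitted value of 9.27 on the log2 scale (SE 1.4, adjusted p = 0.138 by edgeR) depends on the prior count used for such low values. It was 7.70 without K-Ras Mll4-/- replicate 2, 8.46 without K-Ras replicate 1, 10.02 without K-Ras Mll4-/- replicate 1 and 12.28 without K-Ras replicate 2. The K-Ras Mll4-/- samples themselves differed 4.93-fold. Of its 50-base stretches, 14.4% occur in other transcripts, mostly in Krt16, which had at most 8 reads in any sample.

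Its usual type II partner did not accompany it. Krt5 had 8 and 29 reads in the K-Ras samples and 54 and 20 in the K-Ras Mll4-/- samples, or 0.262, 0.802, 2.06 and 0.621 CPM, and the groups overlapped (log2 fold change 1.30, SE 0.86, edgeR adjusted p = 0.422). That log2 value was 0.21 without K-Ras Mll4-/- replicate 1, 0.72 without K-Ras replicate 1, 1.92 without K-Ras Mll4-/- replicate 2 and 2.30 without K-Ras replicate 2. In K-Ras Mll4-/- replicate 2, the sample highest in Krt14, Krt5 stood at 0.282 CPM per kilobase beside 20.4 for Krt14. Krt15, at 0.392, 2.05, 1.22 and 0.931 CPM, and Krt17, at 0.229, 0.941, 0.762 and 0.155 CPM, were low in all 4 samples. Their log2 fold changes were -0.20 (SE 0.83) and -0.40 (SE 1.04), with edgeR adjusted p values of 0.912 and 0.851. These 2 genes had 5 to 74 reads a sample, and both overlapped between the groups.

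Of 5 other airway basal markers, 2 were higher at an unadjusted edgeR p under 0.05, where 11.4% of all genes were higher. Trp63, the p63 transcription factor that specifies basal cells, was at 1.60 and 4.48 CPM in the K-Ras samples and at 18.5 and 88.6 CPM in the K-Ras Mll4-/- samples (log2 fold change 4.13, SE 0.99, edgeR adjusted p = 0.166). Its lowest and highest samples were those of Krt14. Aqp3, a water and glycerol channel, was 1.78-fold higher without overlap (adjusted p = 0.201). Snai2, Ngfr and Sox2 overlapped between the groups, and Sox2 was at 23.5 and 25.9 CPM in the replicates numbered 2 against 3.56 and 6.86 CPM in those numbered 1. No marker of the 5 was called, and the part of basal cells in the Krt14 difference was not tested.

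Krt20, the gut-type keratin, varied more within groups than between them. It was at 0.491 and 3.24 CPM in the K-Ras samples, 6.60-fold apart, and at 1.71 and 13.1 CPM in the K-Ras Mll4-/- samples, 7.62-fold apart. The groups overlapped, the log2 fold change was 1.98 (SE 1.28, edgeR adjusted p = 0.414), and it turned to -0.14 without K-Ras Mll4-/- replicate 2. In both groups the sample numbered 2 was the higher.

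Other gut-type genes, a list of 18 of which 12 were tested, had a median log2 fold change of 1.69. At an unadjusted edgeR p under 0.05, 6 were higher and 0 lower, against 11.4% and 10.4% of all genes. Of the 12, Gkn1 and Guca2a passed the count filter only through the group where they were high, so the median and the count are partly set by the filter. Gkn2, which encodes the stomach protein gastrokine-2, was the one gene called, at 3.47 and 3.18 against 317 and 384 CPM (edgeR adjusted p = 0.0184). Gkn1, gastrokine-1, had 0 reads in both K-Ras samples and 785 and 254 in the K-Ras Mll4-/- samples, so it was higher in replicate 1, unlike Krt20. Tff2, Muc2, Hnf4a and Agr2 were, like Krt20, higher in replicate 2 of each group. The other tested genes of the list did not have that order in both groups. Guca2a, the gut peptide guanylin, was at 0.0654 and 0.138 against 1.18 and 0.962 CPM (adjusted p = 0.147). Cdx2, the intestinal master regulator, had 0 reads in both K-Ras samples and 1 and 11 in the K-Ras Mll4-/- samples. Vil1, the brush border protein villin, overlapped between the groups at 4.34 to 5.85 CPM.

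Beyond the 10, the files listed 42 other keratin genes, of which 10 passed the count filter. Of those 10, 3 were higher and 0 lower at an unadjusted edgeR p under 0.05 (all genes, 11.4% and 10.4%), and 0 were called. The filter fixed part of this count, since 2 of the 3, Krt78 and Krt84, passed it only through their reads in the K-Ras Mll4-/- group. Krt79, a type II keratin of hair follicle and gland ducts and a close neighbour of Krt8, was at 2.78 and 0.692 CPM in the K-Ras samples and at 41.4 and 73.1 CPM in the K-Ras Mll4-/- samples. That is 33.4-fold higher (log2 5.06, SE 0.76, edgeR adjusted p = 0.138), and 0.225% of genes tested had a larger log2 fold change. Krt78 and Krt84 were the other 2, both under 1 CPM in every sample, with adjusted p values of 0.156 and 0.187. Krt80, a type II keratin, was lower, at 106 and 208 CPM against 89.3 and 85.3 CPM, without overlap (log2 -0.84, SE 0.35, adjusted p = 0.253), and is named here because it was the most abundant of the other keratins.

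The genes flanking the Krt8 and Krt18 pair are listed by position, a choice made after the values were seen. On the keratin side, in RefSeq order, the 3 nearest tested genes were Krt78, Krt79 and Krt4, with log2 fold changes of 2.67, 5.06 and 0.57. On the other side they were Eif4b, a translation factor gene, Tns2, a tensin gene, and Spryd3, at 0.72 (SE 0.16), -0.88 (SE 0.26) and 0.14 (SE 0.13). Of the 6 flanking genes, Tns2 alone had a negative value. Krt78 passed the count filter only through the K-Ras Mll4-/- group, and Krt4 had 3 to 22 reads a sample. Whether the keratin differences followed position was not tested.

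Keratin filaments are tied to the cell surface at desmosomes and hemidesmosomes, and 22 of 23 such anchors and linkers were tested. Their median log2 fold change was 0.56 and 0 were called. At an unadjusted edgeR p under 0.05, 9 were higher and 1 lower, against 11.4% and 10.4% of all genes. Dsc3, a desmosomal cadherin, passed the count filter only through the K-Ras Mll4-/- group. Perp, a desmosomal membrane protein, was at 28.6 and 29.6 CPM in the K-Ras samples and at 65.2 and 72.5 CPM in the K-Ras Mll4-/- samples (2.36-fold, edgeR adjusted p = 0.116). Pkp1, plakophilin-1 of stratified epithelium, was at 0.262 and 1.30 against 23.7 and 35.3 CPM (log2 5.21, SE 0.76, adjusted p = 0.136). Lad1, ladinin-1 of the basement membrane zone, was 3.82-fold higher (adjusted p = 0.138). The desmosomal cadherins Dsg2 and Dsc2, singled out after their values were seen, were at 8.93 and 30.8 against 97.2 and 121 CPM and at 1.47 and 5.29 against 65.3 and 105 CPM. Plec, the general linker plectin, overlapped at 1494 and 2257 against 1749 and 1885 CPM, and Jup, plakoglobin, also named after its values were seen, was lower without overlap, at 360 and 494 against 309 and 330 CPM (log2 -0.42, SE 0.21).

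Of 14 intermediate filament genes other than keratins, nuclear lamins included, 11 were tested, with a median log2 fold change of -0.38. Of the 11, Prph passed the count filter only through the K-Ras group. At an unadjusted edgeR p under 0.05, 0 were higher, 2 were lower and 0 were called, counts too small to be set apart from the 11.4% and 10.4% of all genes. Vim, vimentin of mesenchymal cells, overlapped between the groups at 1009 and 520 against 716 and 505 CPM. Des, the muscle filament desmin, was at 15.3 and 15.8 against 10.7 and 7.69 CPM (adjusted p = 0.188), and Synm, synemin, was 1.83-fold lower (adjusted p = 0.189). Lmnb1, a nuclear lamin, was 1.36-fold higher (adjusted p = 0.237).

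The cornified envelope genes that accompany keratins in squamous cells were 12, of which 11 were in the files and 5 were tested. Their median log2 fold change was 1.57 and 0 were called. At an unadjusted edgeR p under 0.05, 3 were higher and 0 lower, against 11.4% and 10.4% of all genes. Ivl, involucrin, was at 5.17 and 2.99 CPM in the K-Ras samples and at 68.3 and 28.7 CPM in the K-Ras Mll4-/- samples (11.9-fold, edgeR adjusted p = 0.144). Tgm1, the transglutaminase that crosslinks the envelope, was at 26.8 and 19.1 against 69.0 and 115 CPM (adjusted p = 0.147), and Sprr1a, an envelope precursor, was 2.97-fold higher (adjusted p = 0.147). The remaining tested genes, Sbsn (suprabasin) and Calml3 (a calmodulin-like protein), had log2 fold changes of -0.84 (SE 0.38) and 0.65 (SE 0.45), and Sbsn was lower without overlap, at 3.63 and 2.30 against 1.64 and 1.68 CPM. The late envelope gene Lor had at most 10 reads in any sample, and Sprr1b and Krtdap had 0 in all 4.

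Krt8 also marks a transitional state between alveolar type 2 and type 1 cells, and 13 other genes of that state were tested. Their median log2 fold change was 1.04 and 0 were called. At an unadjusted edgeR p under 0.05, 8 were higher and 1 lower, against 11.4% and 10.4% of all genes. The 8 include Sprr1a, which is also counted in the cornified envelope list. Clu, the secreted chaperone clusterin, was at 1082 and 1679 against 7427 and 8205 CPM (5.66-fold, edgeR adjusted p = 0.128). Itgb6, an integrin subunit of injured epithelium, was 3.07-fold higher (adjusted p = 0.125) and Hbegf, an EGF receptor ligand, 2.31-fold (adjusted p = 0.119). Cldn4, a tight junction gene often used with Krt8 for this state, was lower, at 96.4 and 67.1 against 45.8 and 43.3 CPM (log2 -0.88, SE 0.21, adjusted p = 0.166). It is named because it was the 1 gene lower at an unadjusted edgeR p under 0.05. Nupr1 was also lower without overlap, at 155 and 195 against 102 and 139 CPM (log2 -0.54). Plaur and Cdkn1a, at -0.07 and 0.02 on the log2 scale, overlapped between the groups.

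**Figure D4:**
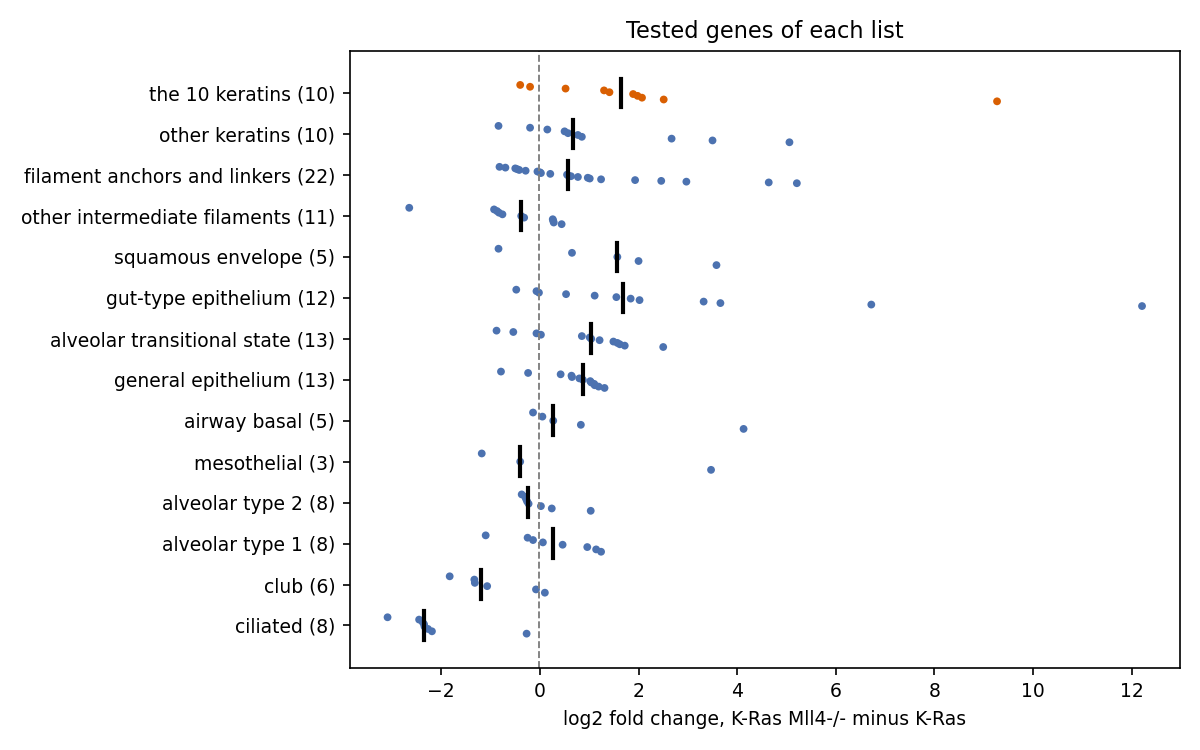
Log2 fold change (K-Ras Mll4-/- minus K-Ras) of the tested genes of each list, 1 point a gene, with the list median as a black bar, the median of all 16001 genes as a dashed line and the number tested in brackets. The keratin median, 1.65, lies near those of the gut-type (1.69) and squamous (1.57) lists and above that of general epithelium (0.87). The point past 12 is Gkn1, and that of Krt14 lies past 9; both sizes depend on the prior count.

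Several other cell types express the simple keratins, and their markers were read beside them. Mesothelium carries Krt7, Krt8, Krt18 and Krt19. Of its 6 markers 5 were in the files, and Msln, mesothelin, was at 13.8 and 17.0 against 120 and 221 CPM (11.1-fold, edgeR adjusted p = 0.116). The other 4 did not go with it. Wt1, its defining transcription factor, had 2 to 5 reads in each sample, Upk3b had 1 to 23, and Upk1b and Lrrn4 had log2 fold changes of -1.18 and -0.40. Club and ciliated cells express Krt8, Krt18 and Krt19 too. The club list had a median of -1.19 with 0 of 6 genes at an unadjusted p under 0.05, and its sum overlapped between the groups, at 1055 and 4139 against 1136 and 1264 CPM. The ciliated list had a median of -2.35 with 7 of 8 lower at that p, where 10.4% of all genes were lower and 11.4% higher. Its sums were 272 and 946 against 248 and 253 CPM. Alveolar type 1 markers had a median of 0.26 with both directions present, from Ager at 340 and 448 against 211 and 157 CPM to Aqp5 at 144 and 245 against 445 and 411 CPM. Endothelial and fibroblast lists had medians of -0.76 and -0.92, with 6 and 3 of 8 genes lower at that p, and the immune list had a median of 0.00 with 1 higher and 1 lower. The part of these shifts in the keratin differences was not tested.

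The genes whose profile over the 4 samples was nearest to that of a keratin were found by the Euclidean distance between centred log2 CPM. For Krt18, the higher keratin with the smallest p, they were Gpr50, Themis3 and Zfp239, at distances of 0.207, 0.213 and 0.267. Gpr50 and Themis3 were under 0.5 CPM in every sample, and Zfp239, a zinc finger gene, was at 1.28 and 1.72 against 8.26 and 6.79 CPM. For Krt17, the lower keratin with the smallest p, they were Barx2, Klk12 and Gjb1, at 0.336, 0.451 and 0.462. With 4 samples many genes lie close by, and the profiles are given as a description.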

How the data were processed

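RNA sequencing of 4 lung tumour samples was used. Each deposited file lists 1 sample's read counts, not normalised, by gene symbol. CASAVA 1.4, STAR, HTSeq and the build mm9 are named per the submitters' processing notes; the annotation and strand setting are not given in the sources used here. Without a known strand setting, reads of overlapping antisense genes cannot be told apart. Reads aligned to several places, 32.2% to 37.4% of aligned reads, stood in closing tallies that were left out of library sizes.

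Groups and replicate numbers came from the titles. K-Ras Mll4-/- was compared with K-Ras over all 4 samples with edgeR 4.0.16 in R 4.3.3: default count filter, TMM scaling, robust quasi-likelihood test, and Benjamini-Hochberg adjustment over 16001 genes. A gene was called at an adjusted p under 0.05. The SE is the log2 fold change divided by the root of the F statistic. An adjusted p with no tool beside it comes from this edgeR fit. Lengths and GC content came from the longest coding GENCODE M21 transcript (24026 of 24391 genes), without coordinates, since that build is not mm9. Shared stretches are exact 50-base matches of each keratin's chosen transcript, on either strand, to any GENCODE M21 transcript of another gene.

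The members and lists were chosen with earlier results of these data known. Named were all 10 keratins and, from each list, called genes and the 3 with the smallest p; other genes were chosen after their values were seen. The fit was tested on simulated counts. Alternatives used DESeq2 1.42.0, limma 3.58.1 and mgcv 1.9-3.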

Additional observations from a re-analysis of the deposited data

How the results depend on the processing

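Of the 10 keratins, 0 were called in the comparison as reported. The number was 2 with scaling on the general epithelium list, 5 with DESeq2 and with the likelihood ratio test, 3 in a fit blocked on replicate number, and 2 with the block and GC and length offsets together. Krt14, which passed the count filter only through one group, was among those called in each of these settings. Leaving out single samples gave 0 to 1. The keratins higher at an unadjusted p under 0.05 numbered 4 to 7 over all settings. Over all genes, 6 were called. Scaling on the general epithelium list gave 1031 (122 higher, 909 lower), no filter beyond 1 read 44, DESeq2 1601, the likelihood ratio test 1503, limma-voom 0 (3228 at an unadjusted p under 0.05), the replicate block 217, the block with GC and length offsets 133, and single samples left out 0 to 524, the highest without K-Ras replicate 1. In those fits the lone sample of an arm is assumed to vary like the other group.

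The replicate numbers are shared by the groups, but nothing says what they stand for. As a check of pairing, the departures of samples with equal numbers from their group means had a correlation of 0.21 over 16001 genes. In the blocked fit Krt14, Krt19 and Krt7 were called (edgeR adjusted p = 0.00818, 0.0337 and 0.0453). Krt15 turned from -0.20 to 0.12 with the block, 0.14 with the block and offsets, 0.17 with limma-voom and 1.42 without K-Ras replicate 2, and its fits without single samples ran from -0.93 to 1.42. Krt17 turned from -0.40 to 0.93 without K-Ras replicate 2 and 0.35 without K-Ras Mll4-/- replicate 2 (range -1.90 to 0.93), Krt20 to -0.14 without the latter (range -0.14 to 3.90), and Krt23 to -0.21 with epithelial scaling. The cause was not tested. The type II over type I difference of -0.19 was 0.01 in raw reads and 0.03 per coding kilobase, an alternative added after seeing the data, as were the ratios of Krt7 to Krt8 or Krt18 and of Krt19 to Krt18. With at least 10 reads in every sample, Krt5, Krt14 and Krt17 were not tested.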
